A study of Mus musculus with 20 samples.

Results

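Wild-type mouse CD4+ T cells cultured with the DOT1L inhibitor SGC0946 were compared with wild-type cells cultured without any compound, across both Th1 and Th2 conditions. The members were chosen by their labels and not by any measured value: 4 libraries with SGC0946 and 4 without compound, 8 of the 20 in the series. All 8 came from mice with a Cre recombinase driven by CD4 regulatory sequences and unmodified Dot1l, here called WT. Cells were enriched from spleen and peripheral lymph nodes and stimulated for 4 days with antibodies to CD3 and CD28 fixed to the plate, each at 1 µg/ml. Th1 cultures received IL-2 and IL-12 at 10 ng/ml each with anti-IL-4 at 10 µg/ml, and Th2 cultures received IL-2 and IL-4 at 10 ng/ml each with anti-IFN-γ at 10 µg/ml. SGC0946 was present at 1 µM, and viable CD4+ cells were sorted at the end. Each of the 4 groups held 2 libraries, and the labels name no vehicle for the cultures without compound. Further groups, namely WT Th1 and WT Th2 cultures with 1 µM of the control compound SGC0649 (4 libraries), and the KO cultures, whose T cells carry CD4-Cre and loxP-flanked Dot1l (4 libraries), are given beside the results where they bear on them.

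DOT1L is the enzyme that methylates lysine 79 of histone H3 within the body of transcribed genes, and it works beside elongation factors at RNA polymerase II. An inhibitor blocks the catalytic site while the protein and its RNA remain, so the RNA of Dot1l itself is not a readout of inhibition. Th1 cells are built around the transcription factor T-bet and the cytokine IFN-γ, and Th2 cells around GATA3 with IL-4, IL-5 and IL-13.

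The 8 libraries held between 9704500 and 12274847 counts in protein-coding genes. The lineage markers matched the labels: Ifng stood at 616 to 739 CPM (counts scaled to a common library size) in the 4 Th1 libraries and at 15.1 to 26.9 CPM in the 4 Th2 libraries, whereas Gata3 stood at 35.3 to 40.7 CPM in Th1 and 299 to 343 CPM in Th2. Cd3e, a chain of the T cell receptor complex, stood at 165 to 328 CPM. The first principal component of the 8 libraries (76.7% of the variance) separated Th1 from Th2, and the second (10.1%) separated all 4 SGC0946 libraries from all 4 without compound. The labels do not say whether the 2 libraries of a group came from separate animals, so p-values measure the spread among these libraries, which may be technical.

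SGC0946 changed 2197 of 13072 tested genes when its effects in Th1 and Th2 were averaged (16.8%, edgeR quasi-likelihood test, Benjamini-Hochberg adjusted p under 0.05). Of these, 1169 were higher (8.94% of tested genes) and 1028 lower (7.86%). The larger changes were mostly increases: 275 called genes were at least 2-fold higher and 22 at least 2-fold lower. Both SGC0946 libraries lay above both libraries without compound in each culture for 13.2% of tested genes, and below them in each culture for 12.4%. Levels were read in the SGC0649 libraries, which are outside this contrast but entered the filter and the estimate of the spread. There, genes that rose by at least 2-fold had a median level of 1.75 CPM. The median was 13.5 CPM for genes that fell by at least 2-fold and 28.8 CPM for all tested genes. Under 1 CPM lay 30.55% of these risers, 4.545% of these fallers and 11.05% of all tested genes. The filter admits a gene with enough counts in 1 group, so genes low elsewhere can enter through the group where they are high. Over all called genes the medians were 19.8 CPM for higher and 61.5 CPM for lower. With any 1 of the 8 libraries left out the count lay between 1209 (without WT Th1 replicate 2) and 1620 (without WT Th2 SGC0946 replicate 1). The median span of the gene on the chromosome was 27.9 kb for higher, 28.6 kb for lower and 23.0 kb for all tested genes.

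The number of calls in each culture depended on the fit. With the spread estimated over all 20 libraries, 1251 genes were higher and 1227 lower in Th2 (19% of tested genes), and in Th1, 249 were higher (1.9%) and 70 lower (0.535%), together 2.44%. With only the libraries of each contrast in the fit the counts were close, 2435 in Th1 and 2447 in Th2. The Th2 count fell to between 886 (without WT Th2 replicate 1) and 1531 when 1 Th2 library was left out. The Th1 count rose to 682 with the replicate number as a block and fell to between 11 and 104 when 1 Th1 library was left out (11 without WT Th1 replicate 2 and without WT Th1 SGC0946 replicate 1). The difference between the effects was itself called for 407 genes (3.11%), 195 with the higher value in Th1 (1.49%) and 212 with the higher value in Th2 (1.62%). This count was 894 with the replicate block and 106 to 298 without single libraries, lowest without WT Th1 replicate 2. Because the Th1 and Th2 contrasts share no library, their calls can be set side by side. Of the genes called higher, 107 were called in both, which is 43.0% of the Th1 list and 8.55% of the Th2 list. Of those called lower, 37 were called in both, 52.9% of the Th1 list and 3.02% of the Th2 list. Another 8 genes called higher in Th1 were called lower in Th2, and 1 called lower in Th1 was called higher in Th2.

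**Figure D1:**
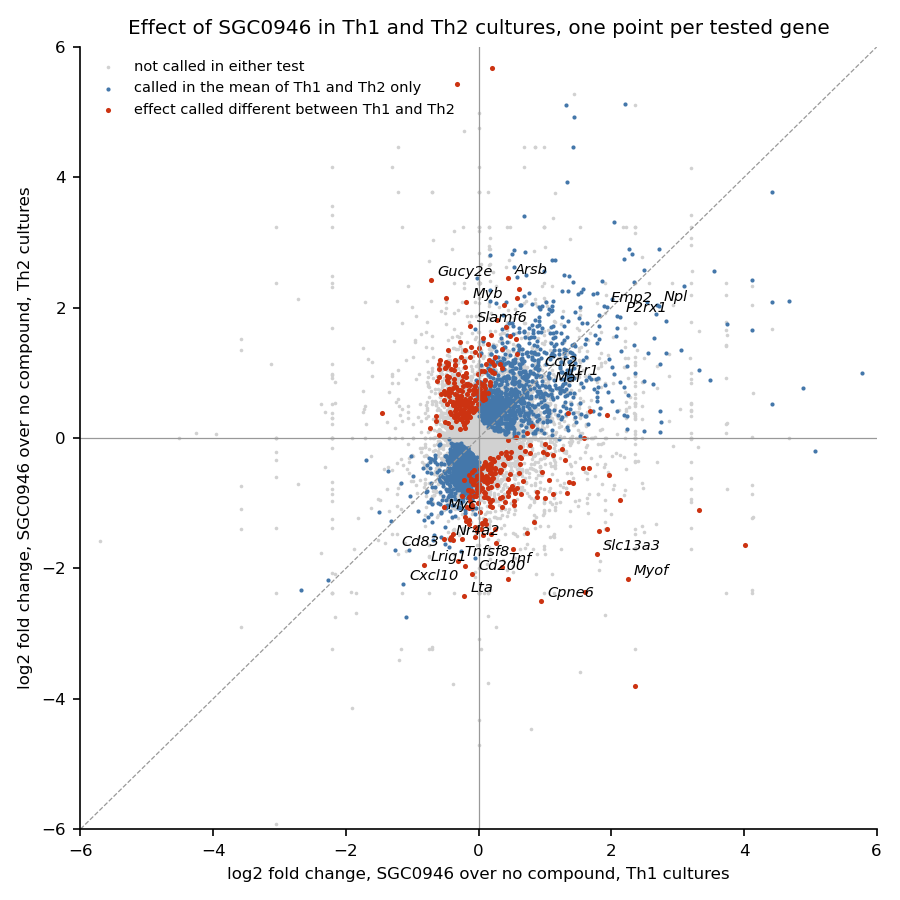
Each point is 1 of the 13072 tested genes, with its log2 fold change for SGC0946 over no compound in Th1 cultures on the x axis and in Th2 cultures on the y axis. Blue marks genes called in the mean of Th1 and Th2 but with no called difference between them, red the 407 genes whose effects were called different, grey the others, and the dashed line marks equal effects. Lta, Cd200 and Tnfsf8 lie low on the y axis and near 0 on the x axis, and Myb, Arsb and Slamf6 lie high on the y axis and near 0 on the x axis.

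The target gene and the lineage-defining genes were examined first. Dot1l (chromosome 10, 80755206 to 80795461, plus strand, GRCm38) stood at 176 and 186 CPM without compound and 139.9 and 154 CPM with SGC0946 in Th1, and at 148 and 164 against 136 and 152 CPM in Th2. The groups did not overlap in Th1 and overlapped in Th2. The mean log2 change ± standard error was -0.21 ± 0.08 (adjusted p = 0.0825), which did not pass, and with the replicate block it did (adjusted p = 0.0447).

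Ifng, the type 1 cytokine, measured 727 and 700.1 CPM against 616 and 739 CPM with SGC0946 in Th1 and 20.8 and 26.9 against 21.6 and 15.1 CPM in Th2, and its groups overlapped in both cultures (mean log2 change -0.23 ± 0.20, adjusted p = 0.48). Tbx21, which encodes T-bet, measured 287 and 272 against 314 and 299.9 CPM in Th1 and 19.98 and 16.6 against 25.5 and 22.8 CPM in Th2. All 4 SGC0946 libraries lay above those without compound, yet the mean change of 0.26 ± 0.10 did not pass (adjusted p = 0.0893; 0.0384 with the replicate block). Il4 measured 72.5 and 74.9 CPM without compound and 51.4 and 53.4 CPM with SGC0946 in Th2, lower in both SGC0946 libraries. Its mean change over both cultures was -0.07 ± 0.23 (adjusted p = 0.872). The Il4 fall in Th2 was not called in the main fit, but was called by limma voom and with only the libraries of the contrast. In the latter fit its difference between cultures was also called.

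The other type 2 genes did not pass in the mean either. Il13 in Th2 measured 372 and 384 against 272 and 335 CPM with SGC0946 (log2 change -0.32 ± 0.24), and in Th1 40.6 and 39.1 against 54.2 and 66.4 CPM (0.60 ± 0.26). Its difference between cultures was not called (adjusted p = 0.183) but passed with the replicate block (adjusted p = 0.0279). The mean changes of Il5 and of Gata3, the Th2 master factor, were 0.13 ± 0.18 and 0.04 ± 0.10, and neither passed (adjusted p = 0.685 and 0.831). Their 95% intervals, -0.26 to 0.52 for Il5 and -0.17 to 0.25 for Gata3 on the log2 scale, bound the size of any change. Cd4 had a mean change of -0.19 ± 0.08 (adjusted p = 0.12; 0.0316 with the replicate block). In Th2 alone Cd4 was called lower (adjusted p = 0.0343), but not in every fit without 1 Th2 library (log2 change -0.52 to -0.22).

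A group of transcription factor and receptor genes rose in the mean of Th1 and Th2. From here on, a value with ± is a log2 change with its standard error, taken over both cultures unless one is named. Maf (chromosome 8, 115682942 to 115707794, minus strand), the factor c-MAF that drives Il4 and Il10 transcription, was one of them. It measured 91.1 and 81.1 CPM without compound against 191 and 168 CPM with SGC0946 in Th1, and 267 and 193 against 417 and 379 CPM in Th2. Every SGC0946 library lay above both libraries without compound of its culture. The mean log2 change of 0.93 ± 0.15 was 1.90-fold (adjusted p = 0.00114). Hlx, a T-bet-associated homeobox factor, rose as well, from 50.3 and 44.3 to 74.5 and 58.4 CPM in Th1 and from 7.30 and 7.03 to 16.7 and 15.1 CPM in Th2 (0.82 ± 0.16, adjusted p = 0.00262). Il10, named above beside Maf, was instead called lower in the mean (adjusted p = 0.0283). That call was not kept in every fit without 1 library (log2 change -0.43 to -0.27).

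Some chemokine receptor genes rose in the mean. Ccr2, the receptor for CCL2, measured 279 and 264 against 525 and 484 CPM with SGC0946 in Th1 and 82.0 and 75.05 against 188 and 137 CPM in Th2 (0.97 ± 0.19, adjusted p = 0.00376). Ccr1, a receptor for CCL3 and CCL5, measured 19.6 and 15.1 against 35.8 and 33.2 CPM in Th1 and 17.8 and 17.4 against 30.5 and 26.3 CPM in Th2 (0.84 ± 0.15, adjusted p = 0.00154). The eotaxin receptor gene Ccr3 rose from 1.61 and 1.41 to 3.95 and 4.10 CPM in Th1 and from 8.94 and 7.65 to 19.5 and 21.5 CPM in Th2 (1.35 ± 0.29, adjusted p = 0.00606). In none of the 3 genes did the groups overlap within a culture. Of 20 chemokine receptor and homing genes, 6 rose and 1 fell, and the rises numbered 3 to 7 when single libraries were left out and 9 with the replicate block. The median change of the list was 0.23, against 0.01 for all tested genes, of which 8.94% rose and 7.86% fell. In the list 11 genes lay above 0 and 9 below. The 1 called lower was the chemokine receptor gene Ccr7 (adjusted p = 0.024), but not in every fit without 1 library (log2 change -0.46 to -0.28). S1pr1, which lets lymphocytes leave lymph nodes, rose in the mean (0.43 ± 0.07, adjusted p = 0.000841), with 0.10 ± 0.10 in Th1 and 0.77 ± 0.10 in Th2. Its difference between cultures was called (adjusted p = 0.0173) and was kept in 2 of 8 fits that each left out 1 library, the others reaching 0.123 (without WT Th2 replicate 1).

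Some receptors of the IL-1 family and genes linked to Th17 cells also rose. Il1r1, the signalling receptor for IL-1, measured 23.1 and 19.3 against 51.9 and 47.8 CPM in Th1 and 16.4 and 13.9 against 27.9 and 29.2 CPM in Th2 (1.07 ± 0.15, 2.10-fold, adjusted p = 0.000326), without overlap. Ltb4r1, the leukotriene B4 receptor, rose from 31.4 and 25.5 to 56.9 and 48.7 CPM in Th1 and from 39.6 and 39.3 to 58.5 and 54.9 CPM in Th2 (0.71 ± 0.11, adjusted p = 0.000676). Il23r, the IL-23 receptor chain, changed by 0.74 ± 0.15 (adjusted p = 0.00325). Of 11 tested Th17 genes 5 rose and 2 fell in the mean, with 3 to 5 rises and 1 to 2 falls when single libraries were left out, against 8.94% and 7.86% of all tested genes. In Th1 6 were called higher and 0 lower (median 0.89), against 1.9% and 0.535% of all tested genes. In Th2 3 of the Th17 genes were higher and 2 lower (median -0.26), against 9.57% and 9.39%. Among them Il17a and Il21, 2 cytokine genes singled out after their values were seen, had called differences between the cultures. Il17a measured 31.1 and 19.6 against 95.8 and 103 CPM with SGC0946 in Th1 and 46.7 and 51.4 against 37.0 and 29.2 CPM in Th2, and the difference between the effects was called (adjusted p = 0.0037). Il21 measured 181 and 169 against 241 and 260.3 CPM in Th1 and 197 and 138 against 51.9 and 51.0 CPM in Th2 (adjusted p for the difference = 0.000539). For both genes the 2 SGC0946 libraries lay above those without compound in Th1 and below them in Th2, and both differences were kept whichever library was left out.

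Some cytotoxic and checkpoint genes rose. Of 19 cytotoxic genes 4 rose and 1 fell (2 to 4 and 0 to 1 without single libraries), against 8.94% and 7.86% of all tested genes. For SGC0946 against SGC0649 none of the 19 cytotoxic genes was called (median 0.04), and SGC0649 against no compound had a median of 0.25. In Th2 the cytotoxic list summed to 3209.8 to 3615.0 CPM without compound, 4199.2 to 4401.7 CPM with SGC0649 and 5595.0 to 6088.4 CPM with SGC0946. Of 18 activation and checkpoint genes 5 rose and 5 fell, in the mean as in Th2. Gzmb, the protease granzyme B, measured 4050.2 and 4316 CPM against 4349 and 5054 CPM in Th1 and 1314 and 1699 against 2973 and 3222 CPM in Th2, with a larger effect in Th2 (0.17 ± 0.14 in Th1, 1.04 ± 0.14 in Th2, adjusted p for the difference = 0.0261). That difference was kept in 3 of 8 fits without 1 library, and reached 0.153 without WT Th2 replicate 1. Prf1, the pore-forming protein perforin, rose too (0.62 ± 0.17 in Th1 and 0.61 ± 0.18 in Th2, mean adjusted p = 0.00332). Granzyme genes have close relatives, and reads with several placements were left out of the counts, so their levels are less certain. Lag3, an inhibitory receptor that binds MHC class II, rose by 0.49 ± 0.08 (adjusted p = 0.000841). Entpd1, the surface enzyme CD39 that breaks down extracellular ATP, rose from 63.9 and 51.1 to 109.9 and 99.4 CPM in Th1 and from 26.9 and 24.8 to 61.6 and 47.4 CPM in Th2 (0.97 ± 0.15, adjusted p = 0.000798). Il2ra, the high-affinity IL-2 receptor chain, rose by 0.41 ± 0.08 (adjusted p = 0.00252).

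**Figure D2:**
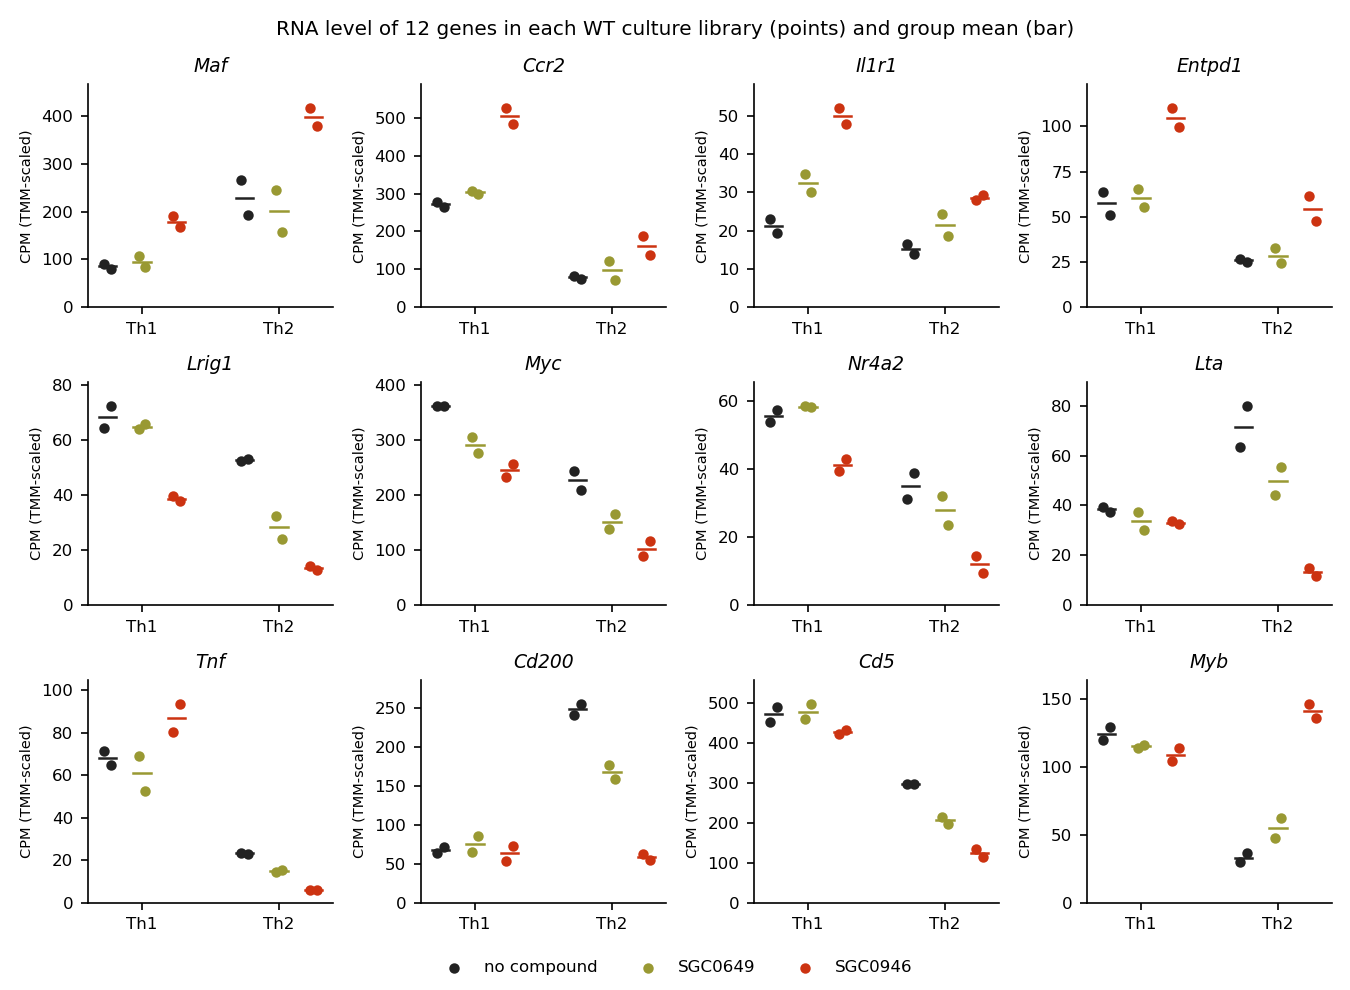
Each panel shows 1 gene, with TMM-scaled CPM on a y axis that starts at 0 and the Th1 and Th2 cultures on the x axis; points are single libraries and bars the mean of 2, in black without compound, olive with SGC0649 and red with SGC0946. Maf, Ccr2, Il1r1 and Entpd1 are highest in red in both cultures, Lrig1, Myc and Nr4a2 are lowest in red in both, and Lta, Cd200 and Cd5 are lowest in red in Th2.

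The 10 genes with the highest mean fold changes and no overlap were mostly expressed at low levels. Emp2, an epithelial membrane protein, measured 1.02 and 0.91 against 3.14 and 4.10 CPM in Th1 and 0.639 and 0.93 against 3.31 and 3.09 CPM in Th2 (3.89-fold, log2 1.96 ± 0.25, adjusted p = 7.10e-05). P2rx1, an ATP-gated ion channel, measured 0.509 and 0.579 against 2.25 and 2.60 CPM in Th1 and 1.19 and 1.55 against 4.81 and 5.14 CPM in Th2 (1.995 ± 0.31, adjusted p = 0.00048). Npl, an enzyme of sialic acid breakdown, rose by 2.37 ± 0.40 (adjusted p = 0.000953), starting from 0.34 and 0.0827 CPM in Th1 and 0.639 and 1.14 CPM in Th2. No difference between cultures was called for these 3 genes (adjusted p = 0.932, 0.876 and 0.735).

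Another 6 of the 10 kept their call without any single library. They were Pkdcc (2.19 ± 0.35), the scaffold gene Slc9a3r2 (2.09 ± 0.34), the sarcoglycan gene Sgce (2.07 ± 0.41), the bicarbonate transporter gene Slc4a4 (1.97 ± 0.41), Podxl (1.92 ± 0.39) and Pdgfrb (1.92 ± 0.30), a receptor usually found in stromal cells. Their mean adjusted p-values ran from 0.000485 to 0.00407. The last, Enox1, was at 0 counts in both WT Th1 libraries without compound, and measured 7.76 and 7.24 against 11.7 and 9.82 CPM in Th2. Its fitted change depends on the prior count and is not given. Its call was kept in 5 of 8 fits without 1 library and reached 0.103 without WT Th1 replicate 2.

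Genes that fell in the mean, with lower levels in both cultures, included Lrig1, Cd83 and Myc. Lrig1 (chromosome 6, 94604529 to 94700158, minus strand), which restrains receptor tyrosine kinases, measured 64.2 and 72.3 CPM without compound against 39.5 and 37.9 CPM with SGC0946 in Th1, and 52.5 and 52.9 against 14.3 and 12.9 CPM in Th2. The mean log2 change of -1.38 ± 0.10 had the smallest adjusted p among the named genes (3.57e-07), and the fall was larger in Th2 (difference 1.14 ± 0.19, adjusted p = 0.0037). Myc, the growth-promoting transcription factor, fell from 361 and 361 to 233 and 256 CPM in Th1 and from 243 and 209 to 88.2 and 115 CPM in Th2 (-0.86 ± 0.09, adjusted p = 1.85e-05). Its difference between cultures did not pass (adjusted p = 0.086), but did with the replicate block (0.0369), on the 8 libraries of the contrast alone (0.0365) and without WT Th2 SGC0946 replicate 2 (0.0453). Cd83, an activation marker of lymphocytes and dendritic cells, fell from 6.79 and 4.38 to 1.98 and 2.70 CPM in Th1 and from 82.6 and 64.9 to 23.8 and 21.1 CPM in Th2 (-1.49 ± 0.27, adjusted p = 0.0024). Cxcl10, an interferon-induced chemokine, fell from 6.54 and 7.69 to 3.23 and 3.20 CPM in Th1 and from 1.00 and 1.86 to 0.301 and 0.28 CPM in Th2 (-1.69 ± 0.28, adjusted p = 0.000933). Lrig1, Cd83 and Cxcl10 were named by a rule that required the SGC0946 libraries to lie below those without compound in both cultures. Myc, named from a list, also did so, as did 12.4% of all tested genes.

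Other genes among the 10 deepest falls were Cdh23, Fam71b and Plk2. Cdh23, a cadherin, changed by -1.13 ± 0.17 (adjusted p = 0.000432) and Fam71b by -1.08 ± 0.13 (adjusted p = 5.23e-05) on the log2 scale. Plk2, a stress-responsive kinase, measured 59.5 and 52.9 against 45.8 and 51.6 CPM in Th1 and 113 and 82.6 against 28.0 and 22.1 CPM in Th2 (mean -1.09 ± 0.11, adjusted p = 1.29e-05), a difference between cultures that was called (adjusted p = 0.00059). The calls of 2 genes of this group depended on single libraries. Npr3 (-1.39 ± 0.40, adjusted p = 0.0315) was kept in 3 of 8 fits and reached 0.161 without WT Th1 replicate 2. Sema6d (-1.29 ± 0.30, adjusted p = 0.0101) was lost without WT Th2 replicate 2 (0.0557) and without WT Th2 SGC0946 replicate 2 (0.0508).

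Some transcription factors of resting T cells fell in the mean. Lef1 measured 197 and 194 against 153 and 152 CPM in Th1 and 135 and 136 against 110.2 and 98.2 CPM in Th2 (-0.37 ± 0.06, adjusted p = 0.000454). Bach2, a repressor that holds back effector differentiation, measured 265 and 274 against 185 and 201 CPM in Th1 and 140.3 and 137 against 79.8 and 56.9 CPM in Th2 (-0.75 ± 0.12, adjusted p = 0.000841). Both lay below the libraries without compound in every SGC0946 library. Of 17 naive and quiescence genes 4 fell and 2 rose, with 3 to 4 falls and 1 rise when single libraries were left out. Of all tested genes, 7.86% fell and 8.94% rose. The list median was -0.19, with 10 genes below 0 and 7 above.

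The NR4A orphan nuclear receptors, immediate early genes induced by T cell receptor signals, all fell. Their promoters are printed because the 3 genes moved together and share a short motif. The sequences are RefSeq promoters on GRCm38.p6, written 5′ to 3′ on the strand of the gene, from 250 bases before the start site to 50 after it. Capitals mark each TGACG or its reverse complement CGTCA, a partial site bound by CREB and ATF factors.
Nr4a1 (chr15:101266596-101266895, plus strand): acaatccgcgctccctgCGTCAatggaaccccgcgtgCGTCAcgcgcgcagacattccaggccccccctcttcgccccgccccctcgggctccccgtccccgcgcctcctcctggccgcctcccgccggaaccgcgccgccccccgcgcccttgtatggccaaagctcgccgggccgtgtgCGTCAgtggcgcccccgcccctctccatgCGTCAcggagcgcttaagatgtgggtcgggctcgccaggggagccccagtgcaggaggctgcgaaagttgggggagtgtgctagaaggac
Nr4a2 (chr2:57123954-57124253, minus strand): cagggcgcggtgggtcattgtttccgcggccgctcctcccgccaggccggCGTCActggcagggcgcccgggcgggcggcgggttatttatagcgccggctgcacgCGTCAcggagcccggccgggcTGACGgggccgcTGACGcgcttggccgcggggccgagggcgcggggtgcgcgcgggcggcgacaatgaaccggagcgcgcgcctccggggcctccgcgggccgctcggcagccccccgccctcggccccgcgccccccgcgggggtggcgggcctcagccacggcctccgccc
Nr4a3 (chr4:48045055-48045354, plus strand): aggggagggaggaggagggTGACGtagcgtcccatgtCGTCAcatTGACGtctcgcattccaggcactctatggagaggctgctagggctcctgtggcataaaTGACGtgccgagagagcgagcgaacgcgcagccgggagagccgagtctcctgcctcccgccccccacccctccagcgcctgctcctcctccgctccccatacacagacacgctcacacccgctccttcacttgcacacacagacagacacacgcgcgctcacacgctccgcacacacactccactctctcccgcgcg
Each of the 3 promoters held 4 matches. Of 10423 promoters of tested genes, 31.3% held at least 1 match and 0.566% at least 4. The motif was chosen after the values were seen, the windows differ in base composition (GC content 72.3%, 81.7% and 64.7%), and a match describes the letters and is not evidence of binding. At least 1 match stood in 27.1% of the promoters of genes called higher, in 37.7% of those called lower and in 18.8% of those called at least 2-fold lower in Th2.

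Nr4a2 measured 53.8 and 57.3 CPM without compound against 39.3 and 42.8 CPM with SGC0946 in Th1, and 31.3 and 38.9 against 14.4 and 9.44 CPM in Th2 (-0.997 ± 0.13, adjusted p = 0.000123). Nr4a3 measured 112 and 122 against 78.7 and 87.1 CPM in Th1 and 14.9 and 18.5 against 8.32 and 7.48 CPM in Th2 (-0.78 ± 0.09, adjusted p = 2.30e-05). Nr4a1, which encodes Nur77, measured 176 and 177 against 155 and 163 CPM in Th1 and 58.7 and 61.2 against 34.0 and 30.4 CPM in Th2 (-0.52 ± 0.09, adjusted p = 0.0011). For all 3 genes every SGC0946 library lay below both libraries without compound of its culture, and the fall was deeper in Th2. The difference was called for Nr4a1 and Nr4a2 (adjusted p = 0.0322 and 0.0267), but these calls were kept in only 1 of 8 and 2 of 8 fits without 1 library, and each reached 0.139 without WT Th2 SGC0946 replicate 2.

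Of 17 immediate early, AP-1 and NR4A factors, 6 fell in the mean and 1 rose (4 to 6 and 0 to 1 without single libraries). In Th2 alone 8 fell and none rose, against 9.39% and 9.57% of all tested genes, and the list median was -0.55 in Th2 and 0.04 in Th1. The falls included the early growth response genes, of which Egr2, singled out after its values were seen, went from 85.2 and 55.1 to 25.1 and 25.5 CPM in Th2 and from 32.6 and 36.4 to 32.6 and 46.4 CPM in Th1 (adjusted p for the difference = 0.00702). The groups were apart in Th2 and overlapped in Th1. The whole list summed in Th2 to 4013.7 to 4305.0 CPM without compound, 3551.3 to 3720.9 CPM with SGC0946 and 3423.4 to 3571.1 CPM with SGC0649. For SGC0946 against SGC0649, over both cultures, 3 of its 17 genes were called lower and 1 higher.

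A set of surface and cytokine genes fell further in Th2 than in Th1 cultures, with a called difference between the effects. The TNF family ligands form the first group. Lta (lymphotoxin alpha) and Tnf are neighbours on chromosome 17 that are transcribed from the minus strand, and their promoters are printed with GGAAA and its reverse complement TTTCC, the core bound by NFAT and ETS factors, in capitals.
Lta (chr17:35205302-35205601, minus strand): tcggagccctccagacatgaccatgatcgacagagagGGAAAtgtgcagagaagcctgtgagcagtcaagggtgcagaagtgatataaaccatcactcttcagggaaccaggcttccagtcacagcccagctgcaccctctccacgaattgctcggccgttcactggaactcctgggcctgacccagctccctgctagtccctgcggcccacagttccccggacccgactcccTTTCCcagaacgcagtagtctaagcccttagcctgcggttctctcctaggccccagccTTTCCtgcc
Tnf (chr17:35201958-35202257, minus strand): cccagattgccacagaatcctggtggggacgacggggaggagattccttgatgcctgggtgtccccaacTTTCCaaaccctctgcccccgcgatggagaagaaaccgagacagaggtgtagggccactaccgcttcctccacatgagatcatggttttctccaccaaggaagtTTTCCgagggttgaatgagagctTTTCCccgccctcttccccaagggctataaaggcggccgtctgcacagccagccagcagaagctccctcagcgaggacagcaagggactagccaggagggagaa
Each promoter held 3 matches, as did 8.63% of the 10423 promoters at that number or above. At least 1 match stood in 58.7% of all of them, in 58.8% of those of genes called higher, in 56.0% of those called lower and in 61.5% of those called at least 2-fold lower in Th2.

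Lta measured 63.3 and 79.8 CPM without compound and 14.8 and 11.8 CPM with SGC0946 in Th2, and 39.4 and 37.3 against 33.8 and 32.3 CPM in Th1. The effect was -2.43 ± 0.18 in Th2 and -0.21 ± 0.17 in Th1 (adjusted p for the difference = 0.000327). Tnf measured 23.5 and 23.1 against 5.92 and 5.89 CPM in Th2 and 71.5 and 64.6 against 80.5 and 93.5 CPM in Th1, and here the groups were apart in opposite directions (-1.98 ± 0.18 in Th2 and 0.35 ± 0.13 in Th1, adjusted p for the difference = 5.25e-05). Tnfsf8, the ligand of CD30, measured 305 and 242 against 72.8 and 75.7 CPM in Th2 and 181 and 177 against 139 and 150.4 CPM in Th1 (-1.88 ± 0.14 and -0.31 ± 0.13, adjusted p for the difference = 0.000539). All 3 differences were kept whichever of the 8 libraries was left out. The third gene of the Lta and Tnf cluster, Ltb, singled out for its position, also fell in the mean (-0.37 ± 0.08, adjusted p = 0.00708). An additive model of the 8 libraries, with culture as a factor and 1 shared effect of SGC0946, gave 1663 calls and no longer called 32 of the named genes in the mean, among them Lta (adjusted p = 0.115), Tnf (0.475), Cd200 (0.129), Myb (0.252) and Plk2 (0.109).

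Cd200, Btla, Cd274 and Izumo1r also had a called difference between cultures, while Lag3, Tigit and Havcr2, other inhibitory receptors, were called higher in Th2. The Th2 calls of Tigit and Havcr2, singled out after their values were seen, were kept in 2 of 4 and 1 of 4 fits without 1 library, and reached 0.130 without WT Th2 replicate 2 and 0.110 without WT Th2 replicate 1. Cd200 (chromosome 16, 45382135 to 45409053, minus strand), a ligand that dampens myeloid cells, measured 241 and 255 CPM against 62.1 and 54.8 CPM with SGC0946 in Th2 and 63.9 and 72.3 against 53.9 and 73.1 CPM in Th1. Its effect was -2.09 ± 0.14 in Th2 and -0.10 ± 0.14 in Th1, where the groups overlapped (adjusted p for the difference = 5.25e-05). Btla (chromosome 16, 45224315 to 45252895, plus strand), an inhibitory receptor whose gene lies next to Cd200, measured 205 and 209.6 against 77.5 and 83.8 CPM in Th2 and 175 and 211 against 166 and 207 CPM in Th1 (adjusted p for the difference = 0.000539). Cd274, which encodes PD-L1, measured 96.0 and 93.5 against 47.3 and 45.3 CPM in Th2 and 194 and 179 against 179 and 169.9 CPM in Th1 (adjusted p for the difference = 0.00059). Izumo1r, a folate receptor family gene of regulatory and anergic T cells, measured 325 and 282 against 135 and 119.8 CPM in Th2 and 259.6 and 281 against 310.5 and 264 CPM in Th1 (adjusted p for the difference = 0.00684).

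Of 15 pan-T cell genes 6 fell and 2 rose in Th2, against 9.39% and 9.57% of all tested genes. The 2 that rose, Cd3e and Cd3g, encode chains of the receptor complex, and were singled out after their values were seen. Neither rise was called in every fit without 1 Th2 library. Over those fits the log2 change in Th2 was 0.25 to 0.36 for Cd3e and 0.32 to 0.57 for Cd3g. Cd3e had a called difference between cultures with the higher value in Th2 (adjusted p = 0.0342), kept in 0 of 8 fits without 1 library and reaching 0.136 without WT Th1 SGC0946 replicate 1. Cd5, a scavenger-type receptor that limits T cell receptor signals, measured 297 and 298 against 134 and 114 CPM in Th2 and 452 and 492 against 424 and 432 CPM in Th1 (-1.26 ± 0.12 and -0.14 ± 0.12, adjusted p for the difference = 0.00178). Its relative Cd6 measured 348 and 355 against 199 and 160.3 CPM in Th2 and 614 and 631 against 568 and 566 CPM in Th1. The Cd6 difference (adjusted p = 0.031) was kept in 1 of 8 fits and reached 0.139 without WT Th2 SGC0946 replicate 2. Lat, the adaptor that links the receptor to downstream enzymes, fell (mean log2 change -0.40 ± 0.06, adjusted p = 0.000584), with -0.63 ± 0.09 in Th2 and -0.17 ± 0.09 in Th1. Its difference was not called (adjusted p = 0.0542), but was called with the replicate block, by DESeq2 and by limma voom. In the mean 4 pan-T cell genes fell and 1 rose, and the summed level of the list was 9184.8 to 9310.9 CPM in Th1 without compound and 9066.3 to 9659.1 CPM with SGC0946. In Th2 the sum was 5832.0 to 6179.9 CPM without compound and 4991.5 to 5747.7 CPM with SGC0946, so the groups were apart there. With SGC0649 the Th2 sum was 4958.1 to 5564.1 CPM, also below both libraries without compound and overlapping the range with SGC0946. The list median for SGC0946 against SGC0649, over both cultures, was 0.05. Fewer T cells and less RNA per cell cannot be told apart in bulk libraries.

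**Figure D3:**
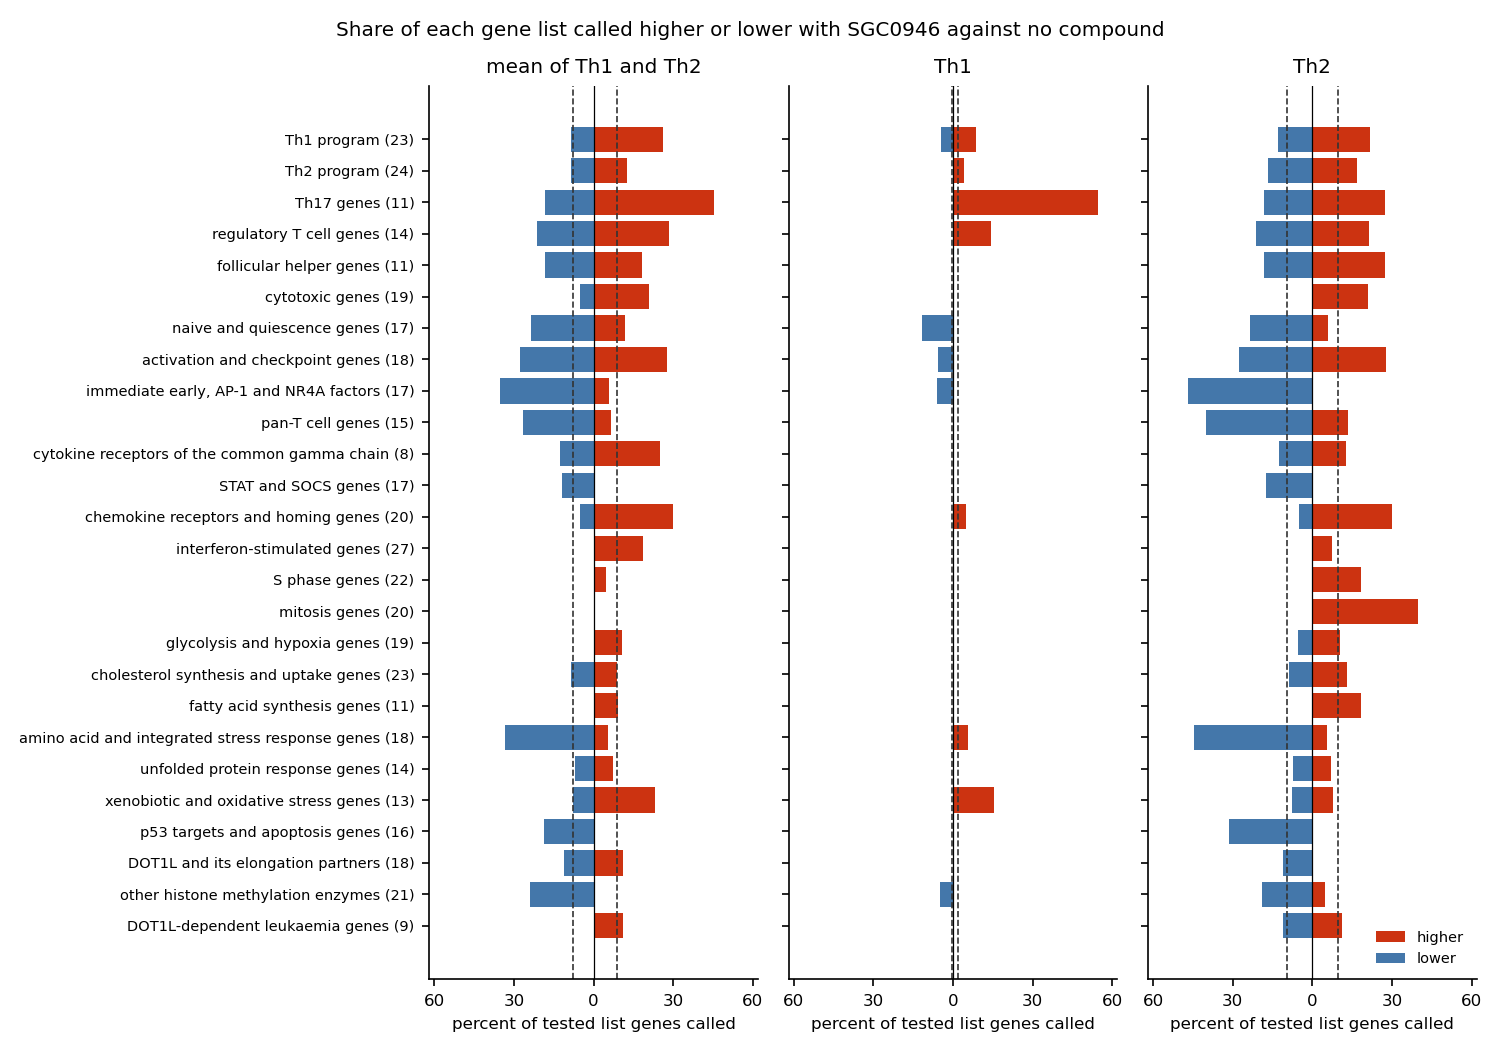
Bars give the percent of the tested genes of each list (number in brackets; lists of other cell types' markers and of RNA quality are not shown) called higher (red, to the right) or lower (blue, to the left) with SGC0946 against no compound, for the mean of Th1 and Th2, for Th1 and for Th2. Dashed lines mark the percent of all tested genes called in that direction (8.94% and 7.86% for the mean); the immediate early, integrated stress response and pan-T cell lists reach furthest to the left in Th2, and of the lists shown the mitosis list furthest to the right.

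Genes with a larger rise in Th2 than in Th1 included Myb, Arsb and Slamf6. Myb, a proto-oncogene and progenitor factor, measured 30.2 and 36.4 CPM without compound and 147 and 136 CPM with SGC0946 in Th2, and 119.7 and 129 against 105 and 114 CPM in Th1 (2.09 ± 0.12 and -0.19 ± 0.11, adjusted p for the difference = 1.34e-06). With SGC0946 both Th2 libraries lay above all 4 Th1 libraries, whereas without compound both lay below them. Arsb, a lysosomal sulfatase, measured 12.8 and 17.2 against 78.1 and 85.7 CPM in Th2 and 78.1 and 71.1 against 103 and 100.2 CPM in Th1 (adjusted p for the difference = 0.000963). Slamf6, a homotypic receptor of T and NK cells, measured 24.5 and 24.3 against 88.2 and 72.9 CPM in Th2 and 76.3 and 84.9 against 71.0 and 77.1 CPM in Th1 (adjusted p for the difference = 0.000337). Gucy2e, a guanylate cyclase gene, rose from 2.74 and 4.45 to 16.3 and 21.97 CPM in Th2 (adjusted p for the difference = 0.002). These 4 differences held without any single library.

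The 5 lowest differences held 2 more genes. Depdc1a, a gene of dividing cells, measured 2.28 and 1.45 against 8.52 and 8.23 CPM in Th2 (adjusted p for the difference = 0.00628, and 0.0547 without WT Th1 replicate 2). Tmod2, a tropomodulin, was at 0 counts in both Th2 libraries without compound and at 0.602 and 0.561 CPM with SGC0946, against 7.81 and 9.93 and 9.34 and 11.01 CPM in Th1. Its difference (adjusted p = 0.0465) was kept in 0 of 8 fits without 1 library.

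The 5 highest differences were higher in Th1 and lower in Th2. Slc13a3, a dicarboxylate transporter, measured 1.44 and 1.57 against 4.85 and 5.60 CPM with SGC0946 in Th1 and 27.4 and 26.7 against 7.92 and 7.76 CPM in Th2 (1.78 ± 0.34 and -1.78 ± 0.25, adjusted p for the difference = 0.000334). Myof, a membrane repair protein, measured 1.27 and 1.08 against 6.20 and 5.004 CPM in Th1 and 2.92 and 2.38 against 0.802 and 0.374 CPM in Th2 (adjusted p for the difference = 0.00146). Cpne6, a calcium-binding copine, fell from 24.3 and 27.7 to 5.11 and 4.02 CPM in Th2 and measured 0.679 and 0.496 against 0.988 and 1.30 CPM in Th1 (adjusted p for the difference = 0.00235). These 3 differences were kept without any single library. Abcc9 (0.0129) and Vwf (0.0083), given here by their adjusted p for the difference, were kept in 4 of 8 and 6 of 8 fits and reached 0.093 (without WT Th2 replicate 1) and 0.0678 (without WT Th1 replicate 2). In all 5 the SGC0946 libraries lay above those without compound in Th1 and below them in Th2.

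Cell cycle genes had log2 changes of opposite sign in the cultures. In Th2, 9.57% of all tested genes were called higher. All 20 tested mitosis genes had a log2 change above 0 in Th2 (0.51 to 1.27, median 0.90) and below 0 in Th1 (-0.55 to -0.24, median -0.46). In Th2, 8 of the 20 passed the test as higher (0 to 4 without single libraries, 10 with the replicate block), in Th1 none passed, and for the difference between cultures none passed (4 with the replicate block). Likewise all 22 tested S phase genes lay above 0 in Th2 (median 0.62, with 4 called higher, or 12 with the replicate block) and below 0 in Th1 (median -0.30, with none called). The summed level of the mitosis list was 1750.1 to 2357.9 CPM in Th2 without compound and 3784.8 to 4171.6 CPM with SGC0946. In Th1 it was 3194.3 to 3465.3 CPM without compound and 2150.4 to 2639.8 CPM with SGC0946. Genes of a cycle phase vary together between libraries, so the shared sign is not the count of independent results. Mcm6, a helicase subunit of replication forks, had a called difference between cultures (adjusted p = 0.00621), with 279 and 321 against 579 and 516 CPM in Th2 and 285 and 322 against 240.0 and 271 CPM in Th1.

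**Figure D4:**
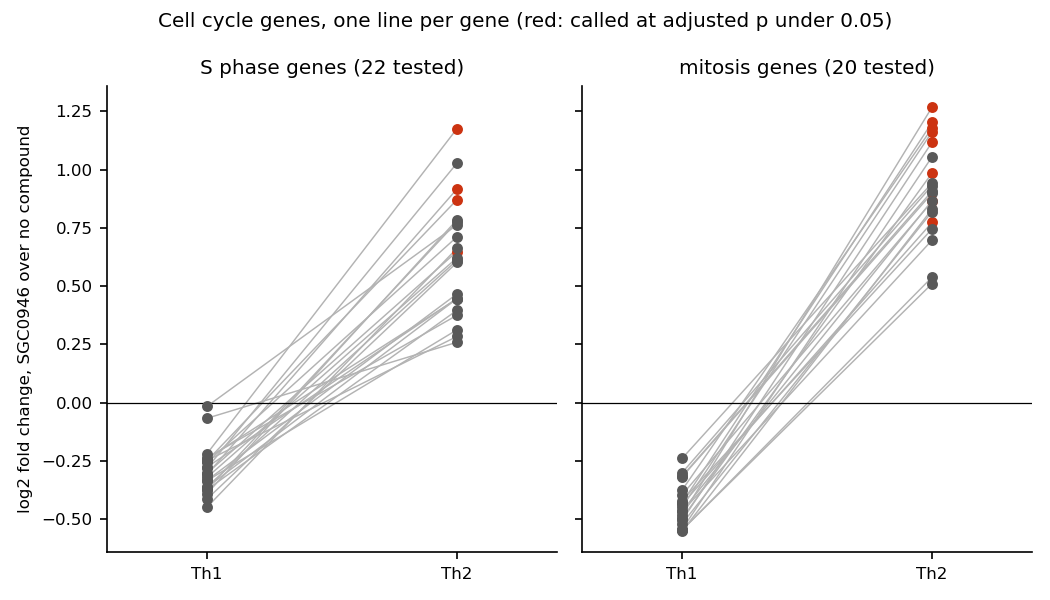
Lines join the log2 fold change (y axis) of each S phase gene (left, 22 genes) and each mitosis gene (right, 20 genes) in Th1 and in Th2 cultures (x axis), with red points for genes called in that culture. Every line runs from below 0 in Th1 to above 0 in Th2.

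Mitosis list sums with the control compound also lay above those without compound in Th2 and below them in Th1. With SGC0649 the mitosis list summed to 2707.6 to 3989.3 CPM in Th2 and 2666.6 to 3046.2 CPM in Th1. In Th1 both SGC0946 sums lay below both SGC0649 sums, and in Th2 the ranges overlapped. What the cell cycle genes contribute to the other results was not tested.

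Amino acid and integrated stress response genes fell in Th2. Of all tested genes 9.39% fell and 9.57% rose in Th2, and 7.86% fell and 8.94% rose in the mean. Of 18 tested genes 8 fell and 1 rose in Th2 (6 to 7 falls without single libraries), and in the mean 6 fell and 1 rose (3 to 6 falls). Atf4, the central factor of that response, measured 619.7 and 624 against 439 and 406 CPM in Th2 and 233 and 233 against 234 and 239 CPM in Th1 (adjusted p for the difference = 0.00394). Sesn2, an inhibitor of the growth kinase mTORC1, fell (mean log2 change -0.47 ± 0.08, adjusted p = 0.000671). The 1 that rose, Ddit4, which restrains the same kinase, measured 205 and 199 against 370.2 and 313 CPM in Th1 and 521 and 613 against 887 and 840.4 CPM in Th2 (0.68 ± 0.11, adjusted p = 0.000695). In both cultures the Ddit4 groups were apart.

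Among other metabolic and stress genes the changes were few, beside 8.94% of all tested genes that rose and 7.86% that fell. Tiparp, a target of the aryl hydrocarbon receptor, rose from 34.0 and 32.6 to 52.8 and 54.8 CPM in Th1 and from 104 and 99.0 to 149 and 147 CPM in Th2 (0.62 ± 0.08, adjusted p = 6.07e-05). Of 13 xenobiotic and oxidative stress genes 3 rose and 1 fell (1 to 2 and 0 to 1 without single libraries). Srebf2, the regulator of cholesterol synthesis, fell (mean log2 change -0.33 ± 0.06, adjusted p = 0.00115), while of 23 cholesterol genes 2 rose and 2 fell. Of 19 glycolysis and hypoxia genes 2 were higher and 0 lower, a share near that of all tested genes (8.94% higher), the 2 being Bnip3 (0.32 ± 0.06, adjusted p = 0.00174) and Ero1l (0.26 ± 0.06, adjusted p = 0.00665). In the list of p53 targets and apoptosis regulators, 3 of 16 members were lower and 0 higher. Bcl2l1, the survival factor BCL-XL, was among the 3 (121 and 119.9 against 66.9 and 69.0 CPM in Th2, mean -0.42 ± 0.07, adjusted p = 0.00102), beside Phlda3 (-0.52 ± 0.10) and Zmat3 (-0.35 ± 0.07).

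Interferon-stimulated genes rose in a few cases, beside 8.94% of all tested genes that rose and 7.86% that fell. Of 27 tested 5 rose and none fell (2 to 5 and 0 to 1 without single libraries), with a median of 0.14. Mx1, an antiviral GTPase, measured 26.8 and 28.7 against 35.8 and 43.5 CPM in Th1 and 10.0 and 10.6 against 19.4 and 19.1 CPM in Th2 (0.70 ± 0.11, adjusted p = 0.000685), and Ifih1, the RNA sensor MDA5, rose by 0.48 ± 0.09 (adjusted p = 0.00136). Cxcl10, described above among the falls, is also induced by interferon and moved the other way.

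Chromatin genes changed by small amounts. Of all tested genes 8.94% rose and 7.86% fell in the mean, and the counts for DOT1L and its partners were near these shares. Of 18 genes for DOT1L and its elongation partners 2 rose and 2 fell (0 to 1 and 1 to 3 without single libraries, and 6 fell with the replicate block). Aff3, a subunit of an elongation complex, had the largest change of the list, from 175 and 182 to 128 and 144 CPM in Th1 and from 36.8 and 44.3 to 21.2 and 18.7 CPM in Th2 (-0.71 ± 0.09, adjusted p = 6.69e-05). Ccnt1, the cyclin of an elongation kinase, rose (0.20 ± 0.05, adjusted p = 0.0141), a call kept in 4 of 8 fits, reaching 0.0625 without WT Th1 replicate 1. Of 21 other histone methylation enzymes 5 fell and none rose (2 to 4 falls without single libraries), with a list median of -0.10. Among them were the H3K27 demethylase gene Kdm6b (-0.33 ± 0.08, adjusted p = 0.00732) and the H3K36 demethylase gene Kdm2b (-0.31 ± 0.07, adjusted p = 0.00438).

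The lineage programs were read as lists, against 8.94% of all tested genes called higher and 7.86% called lower. Of 23 Th1 program genes 6 rose and 2 fell (2 to 6 rises without single libraries, 10 with the replicate block), with a median of 0.13. Of 24 Th2 program genes 3 rose and 2 fell (2 to 4 and 0 to 2, and 5 rises with the block), with a median of 0.18. The regulatory T cell list had 4 higher and 3 lower of 14, and the follicular helper list 2 and 2 of 11.

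Markers of other cell types were counted over whole lists. None of the tested B cell, myeloid and dendritic cell, CD8 T cell or erythroid markers was called in the mean (edgeR), and their sums were 12.4 to 42.6 CPM for B cell markers and 32.1 to 89.5 CPM for myeloid markers over the 8 libraries. Of the B cell genes, all 9 tested had a mean change below 0 (median -1.37), and 3 were called lower with the replicate block. The lists also held genes at 0 counts in all 8 libraries, namely Siglech, Col3a1 and Cdh5. Of 6 NK cell markers Fcgr3 rose (1.27 ± 0.39, adjusted p = 0.0401), a call kept in 0 of 8 fits without 1 library, and of 6 stromal markers Pdgfrb rose.

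The mast cell and basophil list had the most called genes among the marker lists, beside 8.94% of all tested genes called higher. Of 11 tested genes 5 were called higher (1 to 4 without single libraries), and the median was 0.99. Cma1, a mast cell protease, measured 24.2 and 17.8 against 33.7 and 36.6 CPM in Th1 and 21.3 and 18.5 against 42.2 and 53.01 CPM in Th2 (1.00 ± 0.22, adjusted p = 0.00785). Cpa3, a mast cell carboxypeptidase, measured 74.7 and 57.2 against 96.4 and 91.5 CPM in Th1 and 7.48 and 10.4 against 50.6 and 75.3 CPM in Th2 (adjusted p = 0.0154). The Cpa3 call was kept in 5 of 8 fits and reached 0.065 without WT Th2 replicate 1. The list summed to 153 to 201 CPM in Th1 and 91.1 to 97.0 CPM in Th2 without compound, and to 231 to 256 CPM and 263 to 276 CPM with SGC0946. With SGC0649 it summed to 221 to 242 CPM in Th1 and 180 to 231 CPM in Th2. All 11 genes lay above 0 for SGC0649 against no compound (median 0.92), and the median for SGC0946 against SGC0649 was 0.14. Whether such cells are present was not tested, and their part in the other results was not tested.

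The control compound SGC0649 was compared in the same way at the same concentration. SGC0649 against no compound gave 27 calls (0.207% of tested genes), 16 higher (0.122%) and 11 lower (0.0841%), with 1617 genes at an unadjusted p under 0.05 and 141 calls by DESeq2. SGC0946 against SGC0649 gave 944 calls (7.22%), 649 higher (4.96%) and 295 lower (2.26%). These counts depend on WT Th2 SGC0649 replicate 1, without which they were 626 and 1998. The 3 contrasts share libraries, so their values are set side by side and their agreement is not a result. For Maf, Emp2, Ccr1 and Nr4a2 the contrast with SGC0649 is given first and that of SGC0649 with no compound second. Maf differed by 0.95 ± 0.15 from SGC0649 (adjusted p = 0.00197), while SGC0649 itself differed from no compound by -0.02 ± 0.15. Emp2 had 1.88 ± 0.25 (adjusted p = 0.000235) and 0.08 ± 0.30, Ccr1 0.83 ± 0.15 (adjusted p = 0.00384) and 0.02 ± 0.16, and Nr4a2 -0.87 ± 0.13 (adjusted p = 0.000848) and -0.13 ± 0.12.

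For other genes the level with SGC0649 lay between the 2 groups in Th2. Lrig1 measured 64.1 and 65.7 CPM in Th1 and 32.3 and 24.1 CPM in Th2 with SGC0649, against 52.5 and 52.9 CPM in Th2 without compound. Averaged over both cultures, SGC0649 differed from no compound by -0.49 ± 0.09 (adjusted p = 0.043). The average for Plk2 was also called (-0.61 ± 0.11, adjusted p = 0.043). Myc differed by -0.45 ± 0.09 for SGC0649 against no compound (adjusted p = 0.0556) and by -0.41 ± 0.09 for SGC0946 against SGC0649 (adjusted p = 0.0134). Ddit4 and Il1r1 had 0.48 ± 0.11 and 0.56 ± 0.16 for SGC0649 against no compound, and 0.20 ± 0.11 and 0.52 ± 0.15 for SGC0946 against SGC0649. Of these last 2, Il1r1 passed against SGC0649 (adjusted p = 0.0479) and Ddit4 did not (adjusted p = 0.298). Plots of level by library show the same order for Cd5 in Th2, at 216 and 198 CPM with SGC0649 between 297 and 298 CPM and 134 and 114 CPM.

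**Figure D5:**
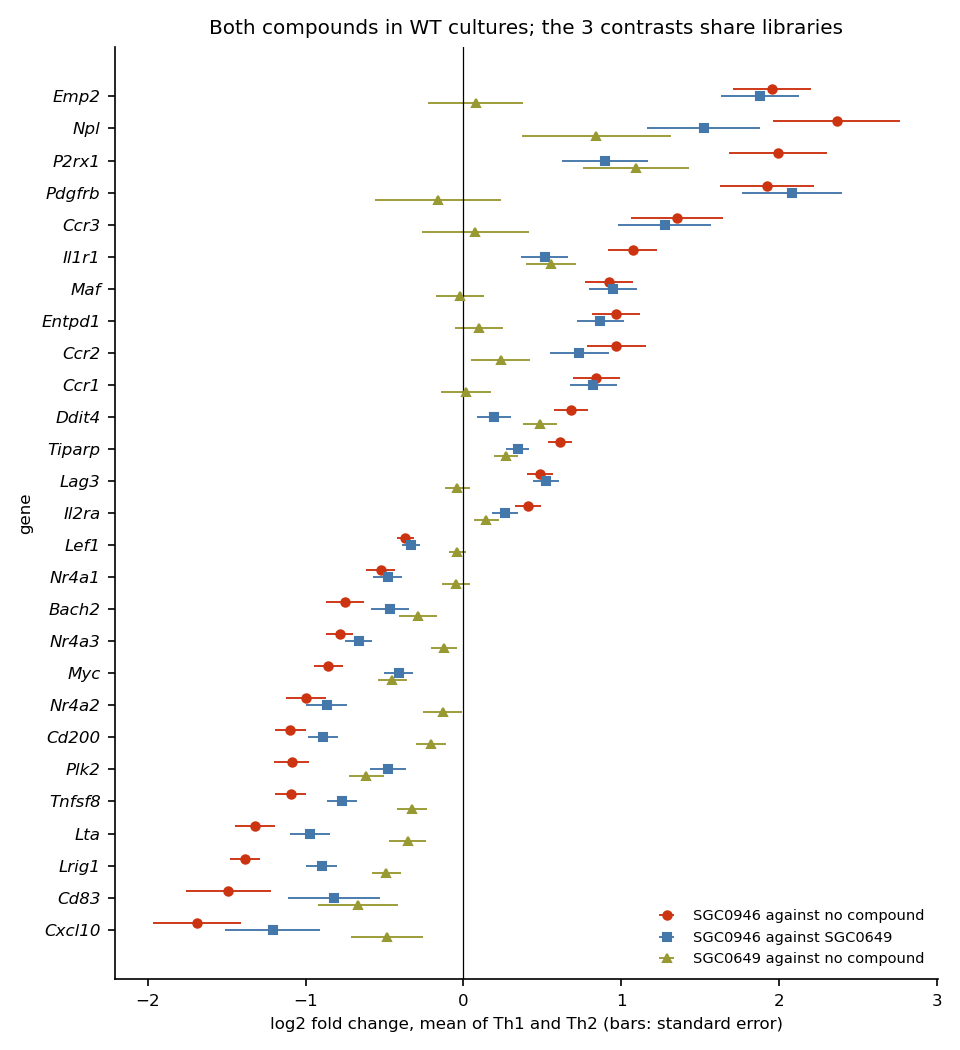
For 27 genes (y axis) the x axis gives the log2 fold change averaged over Th1 and Th2 with its standard error as a bar, for SGC0946 against no compound (red circles), SGC0946 against SGC0649 (blue squares) and SGC0649 against no compound (olive triangles); the contrasts share libraries. Maf, Emp2, Ccr1, Lag3 and Nr4a1 have olive points near 0, while Il1r1, Ddit4, Myc and Plk2 have olive points away from 0 on the side of the red ones.

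Deletion of Dot1l in KO cultures was measured against the same WT libraries without compound, so its values are given only side by side. Lrig1 differed by -2.83 ± 0.14 in KO Th1 and -5.49 ± 0.21 in KO Th2 on the log2 scale. Cd200 differed by -2.03 ± 0.15 and -6.62 ± 0.20, and Btla by -2.96 ± 0.13 and -6.93 ± 0.19, in KO Th1 and KO Th2. For these 3 genes the KO values exceeded those with SGC0946 in size in both cultures. Myb differed by 0.20 ± 0.11 in KO Th1 and 3.58 ± 0.12 in KO Th2, and Tnf by 1.62 ± 0.13 and -1.40 ± 0.17. Both thus had the sign they had with SGC0946 in Th2. Maf differed by -0.57 ± 0.22 in KO Th1 and 1.197 ± 0.21 in KO Th2, so that in Th1 the KO value was below 0 and the SGC0946 value (1.06 ± 0.22) above it. For Myc the values were -0.66 ± 0.13 in KO Th2 against -1.15 ± 0.13 with SGC0946. Cell cycle lists had medians of opposite sign in each culture. The mitosis list had 0.44 in KO Th1 and -1.45 in KO Th2, against -0.46 and 0.90 with SGC0946. The S phase list had 0.68 and -0.32 in the KO cultures, against -0.30 and 0.62 with SGC0946. In KO Th2, 19 of 20 mitosis genes were called lower (26.9% of all tested genes), and in KO Th1 0 were called.

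Neighbouring genes on the chromosome were compared as well. Among genes called higher in the mean, the next tested gene was also called higher in 15.5% of cases and lower in 5.41%, against 8.94% and 7.87% of all placed genes. For genes called lower the next gene was lower in 11.5% and higher in 7.21%. The runs named here were singled out from a longer list after their values were seen, most of them for holding genes of 1 family. On chromosome 7, Ifitm1 (0.85 ± 0.14), Ifitm2 (0.90 ± 0.11) and Ifitm3 (1.15 ± 0.10), interferon-induced membrane proteins that block virus entry, rose together with Ifitm6 (1.17 ± 0.32), the last being kept in 5 of 8 fits without 1 library. On chromosome 1, Il1r2 (0.84 ± 0.17), Il1r1 (1.07 ± 0.15) and Il1rl2 (1.00 ± 0.19) rose, all 3 with no call lost. On chromosome 11 the chemokine genes Ccl5 (1.15 ± 0.23), Ccl9 (1.43 ± 0.19) and Ccl6 (1.33 ± 0.31) rose with their neighbour Ccl3 (0.57 ± 0.17), whose call was kept in 3 of 8 fits. On chromosome 8 the metallothionein genes Mt1 (0.43 ± 0.09) and Mt3 (1.44 ± 0.17) rose beside Mt2 (0.47 ± 0.15), whose call was kept in 0 of 8 fits. Genes of a family can share reads where their sequences are alike, and reads with several placements were not counted. Among the runs of falling genes were Ltb, Tnf and Lta on chromosome 17, and Btla and Cd200 with Atg3 on chromosome 16. Others included Ranbp9, Mcur1, Cd83 and Jarid2 on chromosome 13, and Myc, Fam49b and Asap1 on chromosome 15.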

How the data were processed

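RNA from 20 libraries in 10 groups of 2 was measured, and 8 libraries form the comparison here. The authors deposited raw counts per gene, made with featureCounts 1.5.3 on GRCm38 with Ensembl release 84 and strand setting 2, per the file headers and the submitters' processing notes. Gene length in bases, another deposited column, was not used in tests. Counts of 22048 protein-coding genes were filtered by expression within groups (minimum count 10, minimum total 15), leaving 13072, scaled by TMM and fitted for all 20 libraries (10 residual degrees of freedom) with edgeR 4.0.16 (quasi-likelihood, R 4.3.3). Genes were called at an adjusted p under 0.05 (Benjamini-Hochberg, all tested genes). Fold changes are log2 with standard errors, and were tested on simulated data. Alternatives used DESeq2 1.42.0, limma 3.58.1 (voom), RLE scaling, other filters, fewer libraries, replicate blocks and each library left out.

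The members, gene lists and tests were chosen with earlier results of these data known. Named genes were 8 lineage genes, the 10 highest and 10 lowest mean changes without overlap and with average log2 CPM of at least 1, the 5 highest and 5 lowest differences between cultures, and up to 3 called members per list. Libraries were matched to columns by a sample number found in both names. Same-numbered WT libraries deviated together (r from 0.224 to 0.751 over 15 pairs, 6314 well-expressed genes; lowest 0.073 over all tested genes), so the numbers of the titles were used as a block in an alternative fit, and its value stands beside a result where it changes the call. The printed values come from the fit without the block. The table columns give some libraries another number than the titles do.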

Additional observations from a re-analysis of the deposited data

Results flagged for a closer look

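Among the named genes, the effect of SGC0946 in Th1 minus that in Th2 passed the edgeR test of the difference itself for 34, and each is given here by that difference on the log2 scale. The effect was lower in Th1 and kept its call without any single library for Gucy2e (-3.14), Myb (-2.28), Arsb (-2.01), Slamf6 (-1.84) and Mcm6 (-1.12). The effect was higher in Th1, likewise with no call lost, for Atf4 (0.58), Cd274 (0.94), Cd5 (1.12), Lrig1 (1.14), Btla (1.31), Izumo1r (1.34), Tnfsf8 (1.57), Plk2 (1.76), Cd200 (1.98), Lta (2.21), Tnf (2.33), Cpne6 (3.45), Slc13a3 (3.57) and Myof (4.41).

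The call was lost in at least 1 fit without a library for Tmod2 (-5.49), Depdc1a (-2.64), Gzmb (-0.87), S1pr1 (-0.67) and Nsdhl (-0.64), which were lower in Th1. The same held for Herpud1 (0.57), Stat5a (0.58), Zmat3 (0.58), Sesn2 (0.68), Nr4a1 (0.75), Bcl2l1 (0.81), Cd6 (0.84), Nr4a2 (1.12), Abcc9 (3.96) and Vwf (5.66), which were higher in Th1. Tmod2 was at 0 counts in both Th2 libraries without compound, so its fitted difference depends on the prior count. What sets these differences was not tested.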

How the results depend on the processing

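No named gene changed the sign of a called effect under any alternative run. With 2 libraries a group, the spread rests on all 20 libraries. Fitted on the libraries of each contrast alone, the calls numbered 2435 in Th1 and 2447 in Th2, 1333 for the difference between cultures, 538 for SGC0946 against SGC0649 and 6 for SGC0649 against no compound. With the replicate block of the titles' numbers they numbered 682, 894, 1417 and 80, and with the numbers of the table columns 696 for the difference, 560 against SGC0649 and 46 for SGC0649. The block of the titles lost no named call in the mean, and added Dot1l, Tbx21 and Cd4, while that of the columns lost 6 (Enox1, Il7r, Xbp1, Srxn1, Gsta4 and Cpa3). An additive model of the 8 libraries lost 32 named calls in the mean, Gzmb, S1pr1, Atf4, Bcl2l1, Cd6 and Zmat3 among them. DESeq2 called 672 genes for the difference and 141 for SGC0649, and without the filter on low counts SGC0649 had 44. Leaving out 1 library gave 1209 to 1620 calls for the mean, 11 to 104 in Th1, 886 to 1531 in Th2, 106 to 298 for the difference, 381 to 1998 against SGC0649 and 1 to 626 for SGC0649. Genes near 0 counts, such as Enox1 and Tmod2, are limited by depth.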
